A study of Mus musculus with 4 samples.

Results

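The genes described here are the Rab, Vps and sorting nexin (Snx) genes of mouse macrophages whose signal was at or above a threshold on the arrays. A probe set, the group of short probes that reads 1 transcript, was taken where the array's annotation names 1 gene with a symbol of Rab, Vps or Snx followed by a digit. This held for 299 probe sets and 137 genes of the 18193 genes that a probe set names alone. Each gene was represented by its probe set with the highest mean over the 4 arrays, and a gene was kept where that mean was at least 200, which selected 105 genes, 48 Rab, 31 Vps and 26 Snx. The genes were thus selected on their mean signal, which is given only as a description. The comparison between stimulations played no part in the choice, except that 5 genes (Rab27b, Rab6b, Snx33, Vps33b and Snx29) reached a mean of 200 only through the higher of their group means, that with immune complexes.

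Macrophages were grown from mouse bone marrow for 7 days with 20% L-cell conditioned medium, which supplies M-CSF, and held overnight without it. Both groups were primed with interferon-gamma at 100 U/ml, for 16 h per the labels of one group and overnight per those of the other, and then washed. The LPS group received lipopolysaccharide, a bacterial ligand of TLR4, at 10 ng/ml for 2 h, which the series terms classical stimulation. The second group received that dose for 2 h together with immune complexes, antigen bound by antibody and recognised by Fc gamma receptors, which the series terms type II (LPS+IC below). Each group has 2 arrays, and strain, age and sex are not in the labels used here. No unstimulated or interferon-only sample was analysed here, so a value says how the stimulations differ and not how either differs from rest. The labels do not say that replicates are separate cultures or animals, so p-values cover only how these samples vary, and that variation may be technical.

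Rab proteins are small GTPases that mark membranes and, in the GTP-bound state, recruit motors, tethers and other effectors. Vps proteins, named after yeast mutants in sorting to the vacuole, build the complexes of the endosome. Among these are retromer, which returns cargo to the Golgi or the surface, HOPS and CORVET, which tether membranes before fusion, and ESCRT, which sorts ubiquitinated receptors into internal vesicles. Sorting nexins bind phosphoinositides through a PX domain and shape or select the carriers that leave endosomes. In macrophages these proteins serve the uptake and degradation of opsonised particles and the traffic of Toll-like and Fc gamma receptors.

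Signals below are linear MAS 5.0 intensities, given for replicate 1 and then replicate 2, and fold changes are LPS plus immune complexes over LPS on the log2(signal + 32) scale with limma's standard error (SE). All 4 arrays have a trimmed mean of 500. The first LPS+IC array stood apart at the dim end, with a median over all probe sets of 155.8 against 68.4 to 88.6 on the other arrays. The 105 genes had medians of 1122.2 and 1120.5 under LPS and of 1241.3 and 1415.6 under LPS+IC. All 9 macrophage markers had every reading at or above 729.7. No listed marker of T cells, B cells, dendritic cells, fibroblasts, erythroid cells or mast cells had a mean of 200, but in each of these 6 lists the summed signal was highest on the first LPS+IC array, as for T cells, at 192.8 and 248.8 under LPS and 731.8 and 244.5 under LPS+IC. Of 6 neutrophil markers, S100a8 alone had a mean of at least 200, at 540.8 and 504.7 under LPS and 871.3 and 1137.6 under LPS+IC. The part of that array's dim end or of other cells in the results below was not tested, and in bulk RNA fewer cells of a type and less RNA per cell cannot be told apart.

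Most of the trafficking genes had similar signals with LPS and with LPS plus immune complexes. The log2 fold change lay within 0.5 of 0 for 88 of the 105 genes, with quartiles of -0.17 and 0.29. This share of 83.8% was near the 81.5% of all 8261 genes with a mean of at least 200. The exceptions with the largest differences were all higher with immune complexes: Vps37b of ESCRT-I, Vps18 of HOPS and CORVET, and the sorting nexins Snx30 and Snx16 differed by 2.24-fold to 3.21-fold. Neither these nor any other of the 105 genes passed the test, with 0 called higher and 0 called lower at a limma adjusted p under 0.05 over 27022 probe sets. Of all 8261 genes with a mean of at least 200, 0.0968% were called higher and 0% lower. At an unadjusted limma p under 0.05, 4 of the 105 were higher, namely Vps37b, Vps18, Snx30 and Snx16, and 0 were lower, against 235 higher and 144 lower among the 8261 genes.

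The groups did not overlap, meaning that both arrays of one lay above both of the other, for 27 of the 105 genes. Of these 17 (16.2%) were higher and 10 (9.52%) lower with immune complexes, where 12.4% and 16.9% of the 8261 genes were higher and lower in this way. Centring each array on its median turned that split to 10 higher and 17 lower, against 6.37% and 22.2% of the 8261 genes, while quantile normalization gave 21 and 11. Among the 100 genes with a mean of at least 200 in both groups, 14 were higher and 10 lower without overlap. The exact permutation test of 2 arrays against 2 cannot give a p below 0.333, so no single gene is tested in that way. The median log2 fold change was 0.05 for the 105 genes and -0.05 for the 8261. Median centring moved the latter to -0.25 and the former to -0.15, so directions of small differences are read against that shift.

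**Figure D1:**
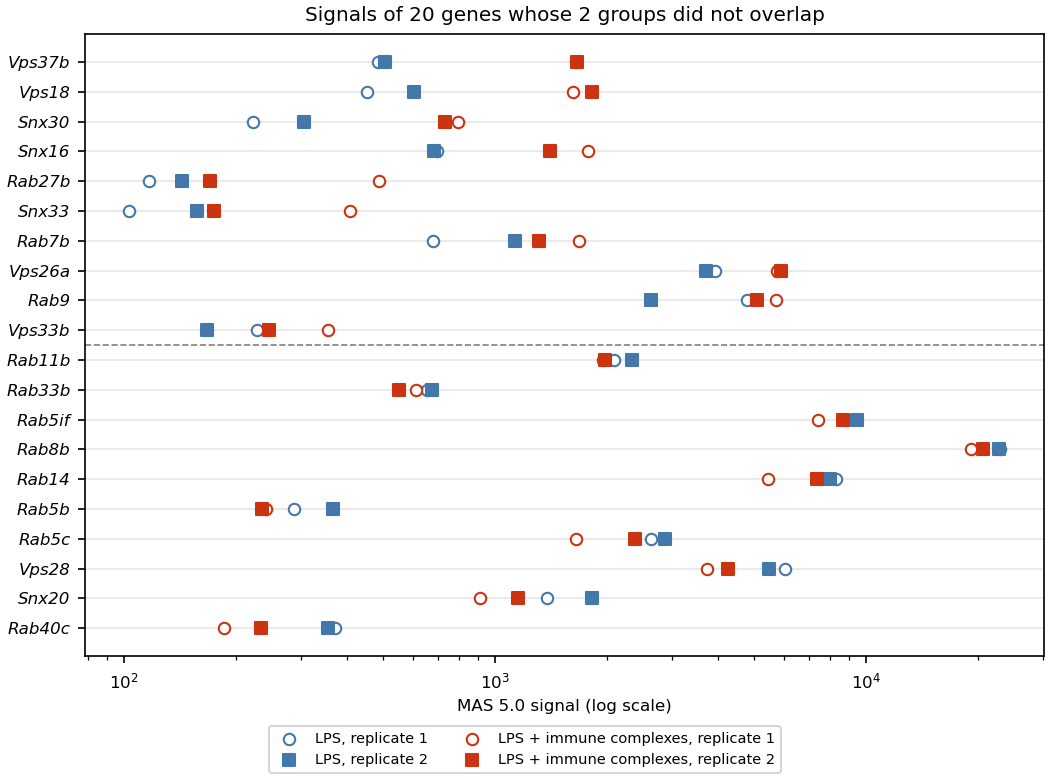
MAS 5.0 signal (log scale) on each of the 4 arrays for 20 genes whose groups did not overlap, the 10 largest differences higher (above the dashed line) and all 10 lower with immune complexes (below it). The gap between groups is widest for Vps37b, from 484.3 and 504.6 to 1655.6 and 1663.7, while in Rab27b and Snx33 the second LPS+IC array lies close to the LPS arrays.

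The promoter sequences of 5 of these genes are shown for reference, 3 higher and 2 lower, chosen after the values were seen among genes with a RefSeq window. Each is the 250 bases before the transcription start in RefSeq's annotation of GRCm38.p6, 5' to 3' on the strand of the gene. Capitals mark any match, on either strand, to the E-box CACGTG, the cAMP response element TGACGTCA, the AP-1 site TGANTCA, the GC box GGGCGG or the NF-kB consensus. The windows are chr2:119288492-119288741 on the plus strand for Vps18, chr4:59805400-59805649 on the plus strand for Snx30, chr10:62486806-62487055 on the minus strand for the upstream of 2 starts of Vps26a, chr17:25919715-25919964 on the minus strand for Rab40c and chr11:100738216-100738465 on the minus strand for Rab5c.
Vps18: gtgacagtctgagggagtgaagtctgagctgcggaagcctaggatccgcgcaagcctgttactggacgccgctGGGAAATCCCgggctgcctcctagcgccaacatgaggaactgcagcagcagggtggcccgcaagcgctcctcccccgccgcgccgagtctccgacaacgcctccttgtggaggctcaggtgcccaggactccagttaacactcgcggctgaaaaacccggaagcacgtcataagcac
Snx30: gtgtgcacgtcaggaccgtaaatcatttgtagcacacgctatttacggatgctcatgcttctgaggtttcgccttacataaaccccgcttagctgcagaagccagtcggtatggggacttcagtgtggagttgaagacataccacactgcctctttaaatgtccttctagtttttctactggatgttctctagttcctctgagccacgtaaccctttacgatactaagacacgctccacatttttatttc
Vps26a: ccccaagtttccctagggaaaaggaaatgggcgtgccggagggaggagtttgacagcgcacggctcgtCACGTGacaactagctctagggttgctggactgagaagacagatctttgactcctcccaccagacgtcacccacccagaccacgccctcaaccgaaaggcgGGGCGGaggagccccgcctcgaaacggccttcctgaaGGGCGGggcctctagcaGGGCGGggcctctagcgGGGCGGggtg
Rab40c: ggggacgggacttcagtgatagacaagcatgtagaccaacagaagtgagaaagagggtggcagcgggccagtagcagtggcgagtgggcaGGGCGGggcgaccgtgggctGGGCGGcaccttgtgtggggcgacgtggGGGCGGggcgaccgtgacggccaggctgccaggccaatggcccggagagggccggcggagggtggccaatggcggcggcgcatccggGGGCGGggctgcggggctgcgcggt
Rab5c: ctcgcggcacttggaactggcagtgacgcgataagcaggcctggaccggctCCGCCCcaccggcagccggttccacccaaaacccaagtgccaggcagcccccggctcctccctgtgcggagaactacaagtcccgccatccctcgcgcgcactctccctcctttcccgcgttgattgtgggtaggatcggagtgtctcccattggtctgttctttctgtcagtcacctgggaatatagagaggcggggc
The Vps18 window holds 1 match, to the NF-kB consensus, between 177 and 168 bases before the start, and the Snx30 window none. The Vps26a window has an E-box from 182 to 177 bases before the start and 4 GC boxes. The Rab40c window has 4 GC boxes and that of Rab5c 1, on the opposite strand. A match is a run of letters and does not show that a factor binds there.

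A promoter window was found for 81 of the 105 genes, 104 windows in all, and none for 24, among them Vps37b, Snx16 and Rab7b. An E-box, the letters bound by the MiT factors TFEB and TFE3 among others, stood in 13.5% of the genes' windows and in 6.02% of all 32851 RefSeq windows of this length. GC boxes stood in 66.3% against 32.7%, the NF-kB consensus in 10.6% against 7.25%, AP-1 sites in 5.77% against 6.75% and cAMP response elements in 0.962% against 1.55%. The genes' windows were also richer in G and C, with a median of 62.0% against 52.4%, which bears on how often letters such as GGGCGG and CACGTG occur. The 12 genes with an E-box had a median log2 fold change of 0.27, with 9 above 0, and the 69 with a window and no E-box had a median of -0.00, with 34 above 0. With median centring these medians were 0.08 and -0.20, and without the second LPS+IC array 0.16 and -0.11. These 12 were Rab3gap2, Vps26a, Vps33a, Vps16, Snx8, Rab3il1, Rab20, Rab10os, Snx5, Rab21, Rab5a and Snx18, of which Vps26a and Vps16 were higher without overlap.

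The families were described beside all 8261 genes, of which 44.1% had a positive log2 fold change and 12.4% and 16.9% were higher and lower without overlap. Of 31 Vps genes 22 (71.0%, or 13 of 31 with median centring) had a positive log2 fold change, 9 were higher and 1 lower without overlap, and the median of 0.12 became 0.06 with quantile normalization and -0.08 with median centring. Of 48 Rab genes 19 were positive (39.6%), 4 were higher and 8 (16.7%) lower without overlap, shares of positive and of lower genes near those of all genes, and the median of -0.10 became -0.03 and -0.29 under these scalings. Of 26 Snx genes 16 were positive (61.5%, or 8 of 26 with median centring), 4 were higher and 1 lower without overlap, and the median of 0.09 became 0.10 and -0.10. With median centring the counts without overlap were 5 higher and 1 lower for Vps, 2 and 13 for Rab, and 3 and 3 for Snx. Without the first LPS+IC array the Rab median was 0.01 and the Vps median 0.26. The difference between families was not tested.

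**Figure D2:**
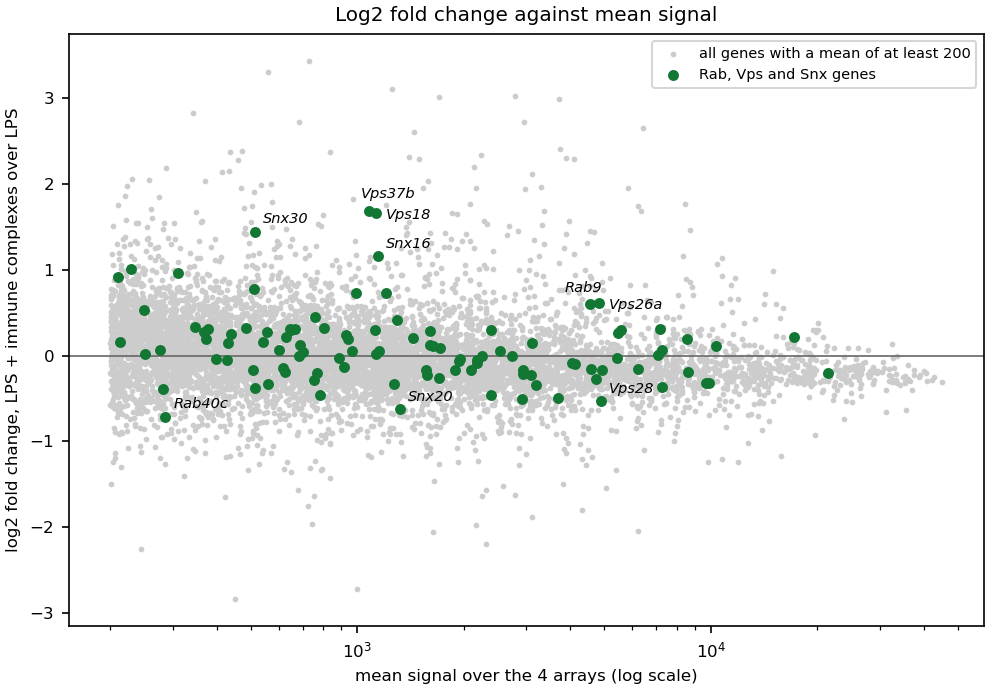
Log2 fold change (LPS plus immune complexes over LPS) against the mean signal over the 4 arrays (log scale) for the 105 Rab, Vps and Snx genes (green) and all 8261 genes with a mean of at least 200 (grey). Vps37b, Vps18, Snx30 and Snx16 lie above the bulk of the green points, and the brightest genes of both sets lie mostly below 0.

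Small differences varied with the signal, both in these genes and in all genes, although the dim end also holds the 5 genes that passed only through their LPS+IC mean. The 18 genes with a mean of 200 to 500 had a median log2 fold change of 0.22, the 49 with a mean of 500 to 2000 one of 0.09, and the 38 at or above 2000 one of -0.10. The corresponding medians over all genes of these ranges were 0.10, -0.05 and -0.16. The first LPS+IC array gave the highest of the 4 readings in 11 of the 18 dimmest genes and the lowest in 15 of the 38 brightest. Over all genes of these 2 ranges it was the highest in 1096 of 2519 and the lowest in 1333 of 2405. Without that array the 3 medians of the trafficking genes were 0.04, 0.14 and -0.01. Without those 5 genes, all above 0, the median of the dimmest was 0.14 (13 genes).

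Among the membrane tethers, Vps18 differed by far more than its partners in the brightest probe set of each gene. HOPS, which joins late endosomes and autophagosomes to lysosomes, and CORVET, which acts on early endosomes, share a core of Vps11, Vps16, Vps18 and Vps33a. The 8 genes listed for them include Vps33b, the relative of Vps33a that works outside HOPS. Their median log2 fold change was 0.31, and it stayed between 0.10 and 0.37 under both scalings and without each array in turn. Of the 8 genes 6 were above 0, with 3 higher and 0 lower without overlap. Of the 8261 genes, 44.1% were above 0, and 12.4% were higher and 16.9% lower without overlap. With median centring 5 of the 8 were above 0 and 2 were higher without overlap, and after quantile normalization 5 and 3. Vps33b reached the threshold only through its LPS+IC mean, and without it 2 of 7 genes were higher without overlap and the median was 0.30. Vps18 stood out within the complex, with signals of 452.1 and 603.7 under LPS and 1622 and 1827.3 under LPS+IC. Both readings with immune complexes were far above both LPS readings, a log2 fold change of 1.66 ± 0.38 (SE, limma unadjusted p = 0.00097, adjusted p = 0.263). Another Vps18 probe set read 297.5 and 346 against 1722.8 and 1798.8, with a log2 fold change of 2.34 ± 0.38 and a limma adjusted p of 0.0678, and the dimmest read 105.4 and 111.3 against 457 and 203. All 3 Vps18 probe sets were thus higher without overlap. Vps16 differed less, from 571.1 and 615.4 to 718.8 and 761.6, with a log2 fold change of 0.30 ± 0.39. Vps33b read 227.5 and 166.9 under LPS and 353.6 and 246.3 under LPS+IC, 0.53 ± 0.46, or 0.29 without the first LPS+IC array. The other core genes overlapped between groups in their brightest probe sets, with log2 fold changes of 0.32 for Vps33a and 0.05 for Vps11. The 3 tested Vps11 probe sets ranged from -0.29 to 0.90, and 1 of them was higher without overlap. The brightest probe sets of Vps8 (0.31) and Vps39 (-0.05) also overlapped, and Vps41, the HOPS subunit with the highest mean, read 2030.1 and 2452.1 under LPS and 1905.7 and 2322.9 under LPS+IC.

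The ESCRT Vps genes gave both signs, with 4 above and 3 below 0 and a median of 0.12 (-0.08 with median centring). ESCRT-I, which binds ubiquitinated cargo, contains 1 of several Vps37 subunits at a time, and these gave both signs. Vps37b had the largest log2 fold change of the 105 genes, from 484.3 and 504.6 under LPS to 1655.6 and 1663.7 under LPS+IC. The readings within each group were nearly equal and the groups lay far apart, a log2 fold change of 1.68 ± 0.37, or 3.21-fold (SE, limma unadjusted p = 0.00074, adjusted p = 0.239). Vps37a read 1157.4 and 1042.5 against 1601 and 1363.3, 0.42 ± 0.36, and was higher without overlap in all 3 of its probe sets. Vps37c read 3036.8 and 5734.9 against 2417 and 3611, with overlapping groups and a log2 fold change of -0.49 ± 0.38, which was -0.04 without the second LPS array and -0.95 without the first. Vps28, the ESCRT-I subunit that contacts ESCRT-II, was lower on both arrays with immune complexes, at 6057.5 and 5467.3 against 3717.6 and 4254.9. That log2 fold change was -0.53 ± 0.30, and between -0.73 and -0.43 under both scalings and without each array. Of the ATPases that take ESCRT-III apart, Vps4b read 7512.2 and 5381.9 against 7301.2 and 8474.9 (0.31 ± 0.30) and Vps4a had a log2 fold change of -0.03. Vps36 of ESCRT-II was at 0.12.

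Retromer's core is a trimer of Vps26a or Vps26b with Vps29 and Vps35. With the related retriever subunits Vps26c and Vps35l, 5 of these 6 genes were above 0 and 3 were higher without overlap. Of the 8261 genes, 44.1% were above 0 and 12.4% higher without overlap. With median centring 3 of the 6 were above 0 and 1 was higher without overlap, and after quantile normalization 5 and 2. The median of the 6 genes was 0.22, and 0.02 to 0.26 under both scalings and without each array. Vps26a had signals of 3911 and 3695 under LPS and 5752.7 and 5915.7 under LPS+IC. Its replicates were close and its groups separate, with a log2 fold change of 0.61 ± 0.30, or 1.53-fold, and a limma unadjusted p of 0.0605. Vps35, the scaffold of the trimer, read 6044.7 and 4079.2 against 6121.1 and 6051.6, so its separation rests on a margin of under 10 signal units from the first LPS array. Vps26b read 405.3 and 410.7 against 471.9 and 436.4, a log2 fold change of 0.14 that became -0.05 with median centring. All 3 tested Vps26b probe sets were above 0, up to 0.43, and 2 were higher without overlap. Vps29, the smallest subunit, overlapped at 8132.7 and 6216.9 against 7586.6 and 7245.9. Its 4 tested probe sets ranged from -0.19 to 0.49, with 1 higher and 1 lower without overlap. The retriever subunits had log2 fold changes of 0.29 for Vps26c and -0.23 for Vps35l, both with overlap. Of the 4 tested Vps35l probe sets, however, 3 were above 0, up to 1.26, and 2 were higher without overlap.

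The remaining Vps genes stayed close to 0. GARP, a tether at the trans-Golgi network, and EARP, its counterpart on recycling endosomes, share Vps51, Vps52 and Vps53. The median of the 5 GARP and EARP genes was 0.01 (-0.18 with median centring, -0.13 after quantile normalization). Vps50, the subunit particular to EARP, was higher without overlap by a small margin, at 935.3 and 815 against 988.6 and 1012.2 (0.19, or -0.01 with median centring). Its other tested probe set was lower without overlap, with a log2 fold change of -0.36, so the 2 differed in sign. Vps54, the subunit particular to GARP, read 4622.8 and 2261.8 against 2826.3 and 2703.3, with the LPS replicates further apart than the groups. Of 5 other Vps genes 0 were without overlap in the brightest probe set, and the median of these genes was 0.06 (-0.13 with median centring). Among the 4 tested Vps13a probe sets 1 was lower without overlap. Vps13d, a lipid transfer protein, read 1261.3 and 981.2 against 1050.8 and 1216.4, and Vps45, which controls SNARE assembly on endosomes, had a log2 fold change of 0.33.

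**Figure D3:**
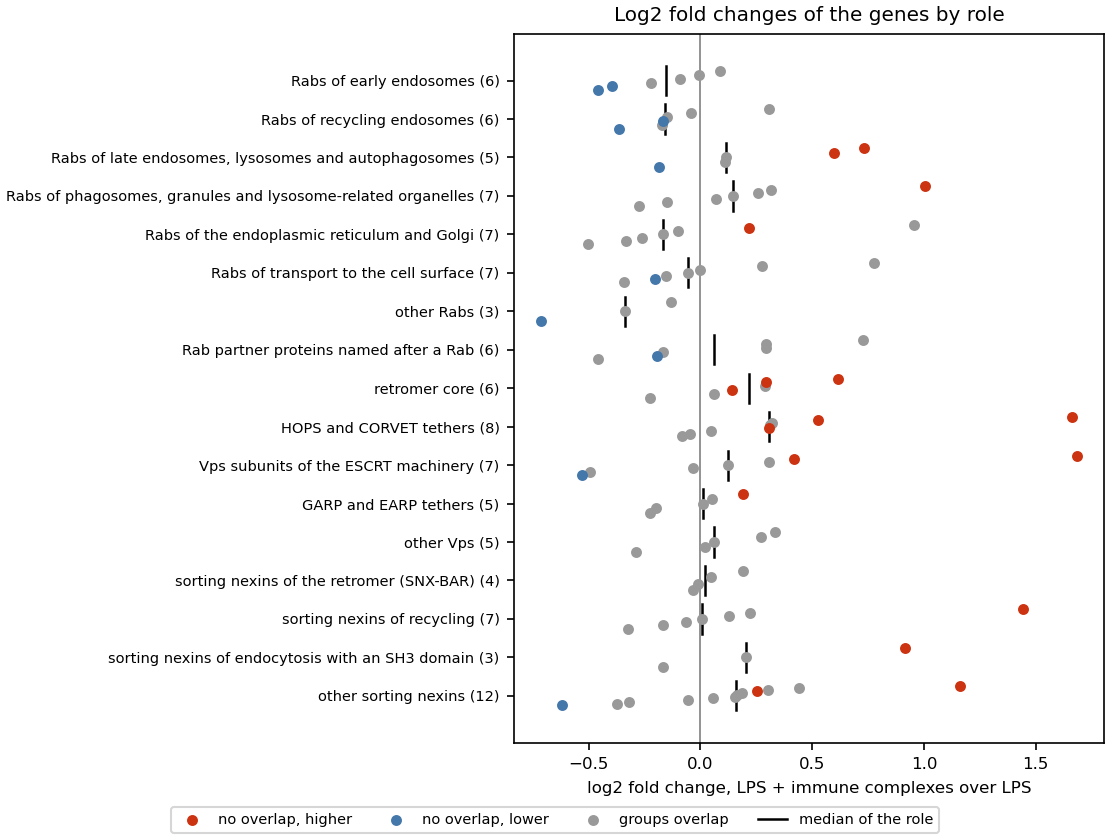
Log2 fold change of the 104 genes that fall in a role list, 1 point a gene, in rows by role with the number of genes in parentheses, and the median of each role as a bar. HOPS and CORVET tethers have a median of 0.31 and Rabs of early endosomes one of -0.16, and most points of every role lie within 0.5 of 0.

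Among sorting nexins 2 were at least 2-fold apart between groups without overlap. Snx30, which pairs with Snx4 on recycling endosomes, read 222 and 304.6 under LPS and 792.9 and 734.2 under LPS+IC. Both readings with immune complexes were well above both LPS readings, with a log2 fold change of 1.44 ± 0.41, or 2.72-fold (SE, limma unadjusted p = 0.0044, adjusted p = 0.639). Its second probe set read 101.5 and 211.2 against 696.8 and 625.9, a log2 fold change of 1.94 ± 0.46. Snx16, a sorting nexin of early and late endosomes, read 696.1 and 683.8 against 1776.1 and 1408.1, a log2 fold change of 1.16 ± 0.37 (limma unadjusted p = 0.0092, adjusted p = 0.943). Its other probe sets had log2 fold changes of 1.37 ± 0.44 and 1.58 ± 0.43, and each was higher without overlap. Snx4, the partner of Snx30, read 1988.9 and 1974.1 against 1808.9 and 1975.3, a log2 fold change of -0.07, so the partners differed in size.

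**Figure D4:**
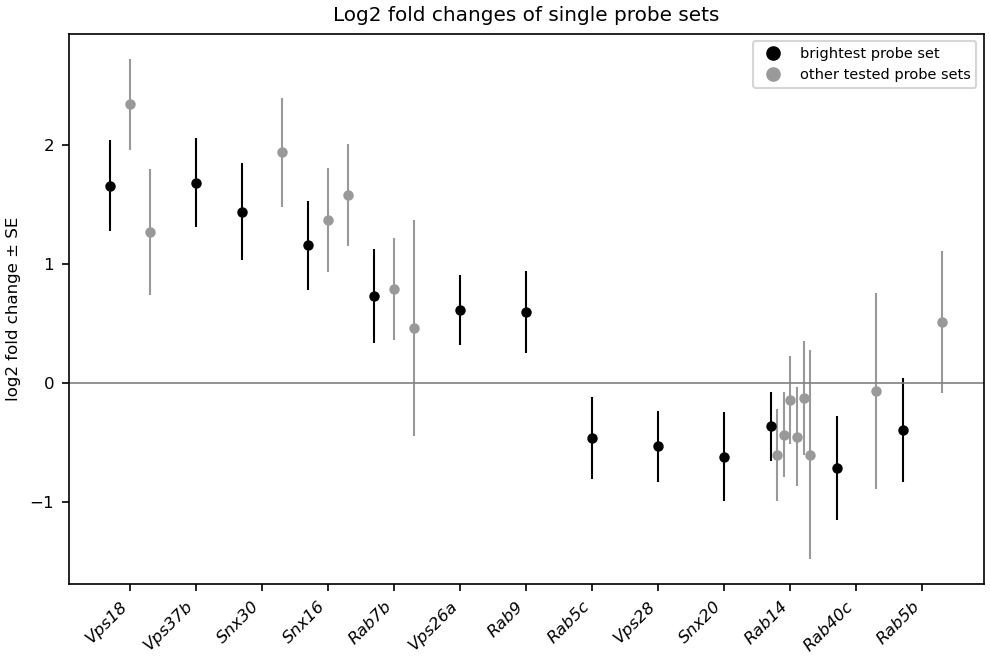
Log2 fold change ± SE of each tested probe set for 13 genes whose groups did not overlap, the brightest probe set in black and others in grey. The Vps18 probe sets lie between 1.27 and 2.34 and those of Snx16 between 1.16 and 1.58, while those of Rab5b lie on either side of 0, and genes with a single point have no second tested probe set.

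Most other sorting nexins differed little. The 7 sorting nexins of recycling had a median of 0.01 (-0.19 with median centring, 0.14 after quantile normalization) and Snx30 alone was without overlap. Snx17, the cargo adaptor of retriever, read 8479 and 12994.9 against 6752.1 and 10399.9, a log2 fold change of -0.32, and Snx3, an adaptor of retromer, one of 0.01. The 4 SNX-BAR genes, whose curved domain drives tubules with retromer, all overlapped in their brightest probe sets, with a median of 0.02 (-0.18 with median centring). Of the 5 tested Snx5 probe sets, all above 0, 1 was higher without overlap. Of the 3 of Snx6, all below 0, 1 was lower without overlap. Snx5 of this group read 8171.3 and 7721.3 against 7727.6 and 10658.8. Of the 3 genes with an SH3 domain, which act in endocytosis, Snx33 read 102.9 and 157.2 against 407.1 and 174.7. Its log2 fold change of 0.92 ± 0.54 was 0.37 without the first LPS+IC array, the only array where it was clearly high. Snx18 of this group read 6248.4 and 4247.8 against 5091.9 and 4138.1. Snx20, which binds the selectin ligand PSGL-1 in leukocytes, was lower without overlap, at 1381.7 and 1828.8 against 909.1 and 1150.1. Its log2 fold change was -0.62 ± 0.37, and between -0.82 and -0.42 under both scalings and without each array. Snx10, which acts in endosome and osteoclast vacuole traffic, read 13983.9 and 8303.6 against 9364.8 and 7971.9, and Snx15 was higher by 0.25 without overlap.

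The Rabs that act first after uptake were mostly below 0, as were 55.9% of the 8261 genes, of which 16.9% were lower without overlap. Rab5 isoforms control fusion of early endosomes and young phagosomes. The 6 Rabs of early endosomes had a median of -0.16, with 5 below 0 and 2 lower without overlap, and it was negative under both scalings and without each array, from -0.35 to -0.07. After quantile normalization 3 of the 6 were above 0. Rab5c read 2637 and 2862 under LPS and 1656.6 and 2384.3 under LPS+IC. Its log2 fold change of -0.46 ± 0.35 was -0.20 without the first LPS+IC array. Rab5b read 286.1 and 365.6 against 241.5 and 235.4, while its second probe set read 254.7 and 118.2 against 489.4 and 136.6, so the 2 probe sets differed in sign. Rab5a read 5857 and 2786.2 against 3938.5 and 3649.4, with LPS replicates on either side of the other group. Rab31, Rab21 and Rab22a had log2 fold changes of -0.22, -0.01 and 0.09 with overlap. Rab31 and Rab21 each had 1 of 2 tested probe sets above 0, at 0.15 and 0.36, and Rab22a had 2 of 4.

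Recycling Rabs, which return membrane to the surface, were mostly below 0 by a small amount that depended on single arrays. Of the 8261 genes, 55.9% were also below 0 and 16.9% were lower without overlap. The median of the 6 genes was -0.16 with 5 below 0 and 2 lower without overlap, and 0.06 without the first LPS+IC array. That array was the lowest of the 4 in 5 of the 6 genes, and in 3161 of the 8261. The median was -0.04 without the second LPS array, with 3 of 6 above 0, and -0.06 with quantile normalization. Rab14, found on endosomes, the Golgi and phagosomes, read 8313.4 and 7992.4 against 5438.7 and 7366.3. Its log2 fold change was -0.36 ± 0.29, or -0.15 without that array. All 7 Rab14 probe sets were below 0, from -0.60 to -0.13, and 4 of them were lower without overlap. Rab11b read 2088.6 and 2341.6 against 1957 and 1978.9, a log2 fold change of -0.17, and its paralog Rab11a one of -0.15 with overlap. Of the 3 tested Rab11b probe sets, however, 2 were above 0, up to 0.24. Rab4b and Rab35 were at -0.04 and -0.17.

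Further along the route to the lysosome, Rab7b and Rab9 were higher with immune complexes. Rab7b, which in macrophages acts on late endosomes and in the traffic of Toll-like receptors, read 680.9 and 1134.6 under LPS and 1679.1 and 1311.9 under LPS+IC. The groups were separate although each was spread, with a log2 fold change of 0.73 ± 0.40 (limma unadjusted p = 0.0905), or 0.38 without the first LPS array. A second Rab7b probe set read 350.2 and 662.7 against 774.7 and 953.7, and a dim one, the last of them, overlapped. Rab9, which returns mannose-6-phosphate receptors from late endosomes to the Golgi, read 4769.4 and 2634.2 against 5717.2 and 5067.3. Its log2 fold change of 0.60 ± 0.35 was 0.17 without the second LPS array, the lowest reading. Rab7, the Rab of phagosome and lysosome fusion, overlapped at 8751.2 and 11172 against 9531 and 11970.5, a log2 fold change of 0.11 (-0.09 with median centring). Rab33b, a Rab of the Golgi and of autophagosome formation, was lower without overlap by a small margin, at 654.3 and 677.2 against 613.7 and 549.8, and Rab24 was at 0.11. The median of these 5 genes was 0.11, or -0.08 with median centring.

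Rabs of phagosomes, granules and lysosome-related organelles showed no shared direction. The median of the 7 genes was 0.15, but -0.05 with median centring and -0.18 without the first LPS+IC array. Rab20, a Rab of the maturing phagosome, read 6440.9 and 3686.5 against 6294 and 5403.2. Rab32 and Rab43 had log2 fold changes of -0.27 and 0.15 with overlap. Rab27b, a Rab of granule and exosome release, was without overlap at 116.8 and 142.9 against 487.6 and 169.9, and its log2 fold change of 1.01 ± 0.55 was 0.32 without the first LPS+IC array. Its probe set is of a kind that can bind transcripts of other genes, and 3 further Rab27b probe sets were too dim to be tested.

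The 14 biosynthetic and secretory Rabs included 2 without overlap, Rab1a and Rab8b, both by small margins. The largest values among them were those of Rab6b (0.96) and Rab3a (0.78), whose LPS+IC replicates disagreed as described below, and of Rab6a (-0.51). Rab1a, which acts between the endoplasmic reticulum and the Golgi, read 17123.9 and 14707.7 against 17527 and 19371.7, a log2 fold change of 0.22 ± 0.24 (0.02 with median centring). Rab6a, of traffic within the Golgi, read 3651.9 and 3126.2 against 1796.4 and 3126.5, so that only the first array with immune complexes was low, and the value was -0.11 without it. The 7 genes of this role had a median of -0.17, and between -0.37 and -0.05 under both scalings and without each array. Rab8b, of transport to the plasma membrane, read 22994.8 and 22848.6 against 19178.4 and 20717.7, a log2 fold change of -0.20 that became -0.01 with quantile normalization. Its paralog Rab8a was at -0.34, and Rab10 and Rab12 were at -0.16 and -0.06, all with overlap. Rab40c, a Rab with a SOCS box that recruits a ubiquitin ligase, had the lowest log2 fold change of the 105 genes. It read 369.9 and 355.5 under LPS and 185.7 and 234.1 under LPS+IC, -0.71 ± 0.44, and -1.01 with quantile normalization. A dimmer Rab40c probe set read 87.3 and 90.5 against 184.8 and 29.7, with the replicates on either side of LPS. Rab29, a partner of the kinase LRRK2, read 1097.6 and 1734.4 against 854.9 and 1378.2.

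Proteins named after a Rab they bind gave both signs, with 3 of 6 above 0 and a median of 0.06 (-0.13 with median centring). The subunits of the Rab3 GTPase-activating complex, which also acts on Rab18, had opposite signs over all arrays but not without the first LPS+IC array. Rab3gap2 read 527.2 and 956.6 under LPS and 917.2 and 1566.1 under LPS+IC, 0.73 ± 0.44, and Rab3gap1 read 709.4 and 1087.6 against 440.4 and 897.7, -0.46 ± 0.45, both with overlap. Without that array the values were 1.1 for Rab3gap2 and 0.03 for Rab3gap1, and without the first LPS array 0.32 and -0.76. Rab5if, a Rab5-interacting factor, was lower without overlap at 8907.7 and 9456 against 7401.2 and 8682.5 (-0.19 ± 0.27). Rab10os, a noncoding transcript opposite to Rab10 that was matched by its symbol, was at 0.24.

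Replicates of several genes differed more than the groups. The median difference between replicates was 0.39 on the log2 scale for LPS and 0.31 for LPS+IC, and it was above 1 in 7 and 6 of the 105 genes. The largest were all between the LPS+IC arrays. Rab3a, known from synaptic vesicles, read 127.3 and 304.2 under LPS and 1545.3 and 67.9 under LPS+IC, a 15.8-fold difference between replicates. Rab6b, the neuronal form of Rab6, read 234.2 and 91.3 against 802.5 and 116.1, and Rab38, of melanosomes and other lysosome-related organelles, 415.1 and 308.6 against 1025.1 and 191.1. In each of these 3 genes the first LPS+IC array was the highest, and without it the log2 fold changes of 0.78, 0.96 and 0.32 became -1.21, -0.29 and -0.81. These readings are of the brightest probe set. Those of Rab3a and Rab38 are, like that of Rab27b, of a kind that can bind transcripts of other genes. A second tested Rab38 probe set had a log2 fold change of 0.44 and was higher without overlap.

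**Figure D5:**
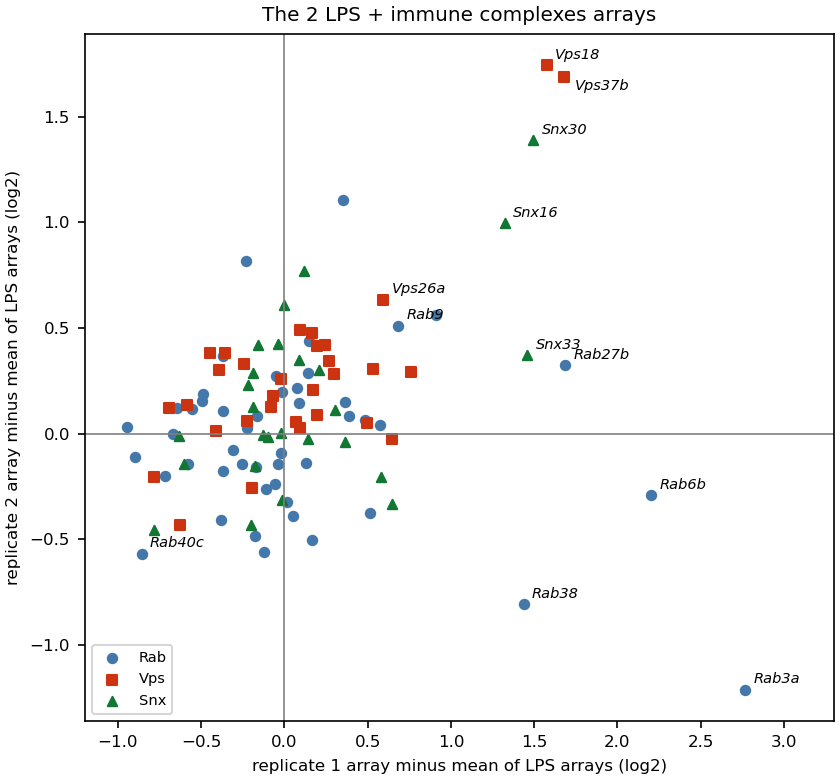
Difference of each LPS+IC array from the mean of the LPS arrays (log2), replicate 1 on the horizontal and replicate 2 on the vertical axis, 1 point a gene for 48 Rab, 31 Vps and 26 Snx genes. Vps37b, Vps18, Snx30 and Snx16 are high on both arrays, while Rab3a, Rab6b and Rab38 are high on replicate 1 and below the LPS mean on replicate 2.

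Against the mean of the LPS arrays, 35 genes were above on both LPS+IC arrays, 27 below on both, 13 above on replicate 1 alone and 30 above on replicate 2 alone. Among the 8261 genes these counts were 1953, 2600, 1440 and 2268. A difference of more than 0.5 on both arrays was seen upward in 7 genes (6.67%, against 4.6% of the 8261) and downward in 1 (0.952%, against 2.66%). Of 63 genes with several tested probe sets, 20 had all of them above 0, 13 all below and 30 both signs. Every tested probe set was higher without overlap in 4 of them (Vps18, Snx16, Snx30 and Vps37a) and lower in 0. The like counts over all genes were not computed, so these are given as a description. The other 42 genes had a single tested probe set, Vps37b and Vps26a among them.

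The threshold of 200 fell among genes of like signal. Just inside it were Rab27b (mean 229.3), Snx29 (213) and Snx33 (210.5), and just outside Vps9d1 (192.9), Rab11fip2 (168.1) and Rab4a (166.4). The 32 genes below it are not described further.

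The partners of these proteins, taken from 5 lists, held 0 genes called in either direction. These lists were not held to a mean of 200. Their counts without overlap are read against the 13.2% higher and 13.1% lower of all 12891 tested genes. For the 8261 genes with a mean of at least 200 these shares were 12.4% and 16.9%. Regulators that load, extract or switch off Rabs had 48 of 50 genes tested, 10 higher (20.8%) and 9 lower (18.8%) without overlap and a median of 0.03, or 4 and 10 and -0.17 with median centring. Rabgef1, the exchange factor of Rab5, read 3091.1 and 3260.4 against 5600.9 and 4971.9, a log2 fold change of 0.73 ± 0.30, while Rin2, another Rab5 exchange factor, read 2133.9 and 1582.4 against 574.5 and 1101.2, -1.17 ± 0.41. Both are separate between groups and opposite in sign. SNAREs and their partners, which fuse membranes, had 9 of 35 above 0, 2 higher (5.71%) and 6 lower (17.1%) without overlap and a median of -0.08, or 1 and 8 and -0.28 with median centring. Among them were Stx11 at 0.82 ± 0.31 and Snap47 at -0.74 ± 0.37. Other ESCRT genes had 5 higher (21.7%) and 3 lower (13.0%) of 23, or 1 and 4 with median centring. Among them were Stam2 of ESCRT-0 at 0.78 ± 0.35, from 1469.2 and 1246.9 to 2397.8 and 2300.7, and Ubap1 of ESCRT-I at 0.51 ± 0.35. Phosphoinositide enzymes had 4 higher (18.2%) and 3 lower (13.6%) of 22, or 3 and 2 with median centring. Among them were Pikfyve, the kinase that makes the lipid of late endosomes, at 0.90 ± 0.39 and the phosphatase Inpp5b at -0.89 ± 0.35. The WASH complex and its retriever partners had 3 higher (17.6%) and 5 lower (29.4%) of 17, or 1 and 2 with median centring, and the former included Ccdc93 at 1.25 ± 0.42, from 372.7 and 424.2 to 1305.1 and 750.4. At an unadjusted limma p under 0.05 these lists, with 48, 35, 23, 22 and 17 tested genes, held 5 higher and 3 lower genes. Among all 12891 tested genes these counts were 256 and 147.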

How the data were processed

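Biotin-labelled total RNA of the 4 samples was read on a mouse Affymetrix array, per the labels' protocols. The deposited values are linear intensities that the authors made with MAS 5.0, per the submitters' processing notes. No detection calls were used here. Groups and replicate numbers came from the sample titles, and the deposited scaling was kept.

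Tests ran on log2(signal + 32), a scale that makes changes of dim probe sets look smaller. Control probe sets and those with a mean under the 40th percentile (69.6) were left out, and 27022 were tested with limma's lmFit and eBayes (limma 3.58.1, R 4.3.3), using a variance trend and no block, two-sided, with Benjamini-Hochberg adjustment over all of them. All 105 genes passed that filter. Probe sets were named by GEO's annotation of the array, and all 105 genes matched RefSeq by gene ID. The method was tested on simulated data. With 2 arrays a group, their number limits the precision.

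The genes, the role lists, the 5 partner lists and the marker lists were chosen with earlier results of these data known. Genes described array by array were up to 10 without overlap in each direction by size, the brightest of each role, 4 with the largest replicate differences and 3 on each side of the threshold; up to 4 genes of a partner list qualified by the same measure. Alternatives were quantile normalization, median centring, pseudocounts of 1 and 100, no filter or the 60th percentile, no variance trend, the replicate number as a block, each array left out, averaging all probe sets of a gene, no _x_at or _s_at probe sets, and thresholds of 100 and 500. Whether titles with the same number share a source is not stated. Deviations of same-numbered arrays from their group means correlated at 0.38 over tested probe sets, which with 2 pairs does not establish a pairing.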

Additional observations from a re-analysis of the deposited data

How the results depend on the processing

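No gene of the 105 was called under any alternative except the replicate block, where 4 were higher (Snx16, Vps18, Vps37b and Snx30, with limma adjusted p from 1.3e-06 to 0.0027) and 0 lower, beside 2.70% and 2.02% of the 8261 genes. The replicate numbers are not known to pair the arrays, and across the other alternatives the lowest limma adjusted p was 0.0607 for Vps37b and 0.0623 for Vps18. Median centring gave a median log2 fold change of -0.15, with 10 genes higher and 17 lower without overlap, and the cause was not tested. Leaving out 1 array gave 29 to 41 higher and 22 to 37 lower, beside 26.0% to 31.0% of the 8261 genes higher and 29.3% to 43.0% lower, since overlap is easier to avoid with 1 array in a group, and medians from -0.02 to 0.09. A gene without overlap keeps its sign by definition when 1 array is left out, so only the scalings could turn it. Of the 27 genes without overlap, 15 of 17 higher and 10 of 10 lower ones kept their sign under both scalings. Over all 105 genes, 41 kept their sign under both scalings and without each array. Signs of small values turned with median centring for Vps13d (-0.17), Rab7 (-0.086), Vps29 (-0.14) and Snx5 (-0.0052), and after quantile normalization for Rab5a (0.0055). Without each array in turn the log2 fold change ranged from -0.74 to 0.29 for Vps54, -0.22 to 0.057 for Vps41, -0.69 to 0.057 for Snx10, -0.15 to 0.20 for Vps13d, -0.62 to 0.44 for Rab5a, -0.065 to 0.29 for Rab7, -0.14 to 0.66 for Rab20, -0.13 to 0.25 for Vps29, -0.44 to 0.11 for Snx18 and -0.040 to 0.42 for Snx5. It ranged from -1.21 to 2.77 for Rab3a, -0.29 to 2.20 for Rab6b and -0.81 to 1.44 for Rab38, each lowest without the first LPS+IC array. Values at low signal are limited by background, which was not measured here. The 5th percentile of the signals was 28.1 on the first LPS+IC array, against 3.3 to 7.9 on the others, and its cause was not tested.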
